A study of Mus musculus with 7 samples.

Results

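The Slc25 genes encode the mitochondrial carrier family, the nuclear-encoded proteins that move nucleotides, phosphate, amino acids, carboxylic acids and cofactors across the inner mitochondrial membrane. The members were the gene entries whose symbol starts with Slc25a, and 47 such entries were found among the 25912 entries listed for each library. The choice used the symbol alone and no measured value. Of these 47 members, 28 had a mean of the 3 group means of at least 1 FPKM (fragments per kilobase of exon, relative to all mapped fragments) and were tested together with the other entries that passed, 9202 in all. Libraries made by Smart-seq2 from 10 mouse oocytes each represented GV oocytes (germinal vesicle stage, the immature stage before meiosis resumes; 2 libraries, whose treatment label reads NO, although the study's methods state that GV oocytes too received DMSO as a control), MII oocytes (metaphase II, the mature egg) cultured with the solvent DMSO (3 libraries), and MII oocytes cultured with BYBX (2 libraries). BYBX is a fluorescent ligand that binds and stabilizes RNA G-quadruplexes (rG4s). The study reports that BYBX lowered the rate of first polar body emission, and that few treated oocytes reached MII, with abnormal spindles. How the oocytes of the BYBX libraries were picked is not stated. They may include oocytes that did not reach MII, so stage and treatment cannot be told apart. All oocytes came from 4-week-old, hormone-primed females of C57BL/6 background, and the MII stage followed 16 h of culture. The genotype label reads Control for the GV and DMSO libraries and Treat for the BYBX libraries, and no transgene or deletion is named for any of them. Nothing in the sources says that the libraries of a group came from separate animals, so the p-values measure the spread between these libraries, which may be technical. The 3 comparisons share libraries with each other, and their values are therefore given side by side.

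Many carriers of this family exchange one solute for another, and the best known of them, the ADP/ATP carriers, let the ATP made in the matrix leave in exchange for ADP. The mouse oocyte makes its ATP mainly by oxidation of pyruvate in mitochondria, and it stores transcripts during growth that are partly removed when meiosis resumes, at a time when no new ones are made. The carriers are made in the cytosol and inserted into the inner membrane through a dedicated import route, the TIM22 complex. Reverse transcription started from oligo-dT, so the values follow polyadenylated RNA, and loss of a transcript cannot be told apart from loss of its poly(A) tail.

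The deposited FPKM values were scaled by the authors to a spike-in of external RNA added per sample of 10 oocytes, so that the listed FPKM summed to 489569 and 402113 in the GV libraries, 109732 to 127254 in the MII libraries with DMSO and 246710 and 201482 in the BYBX libraries. On this scale fewer oocytes in a library, less RNA per oocyte and a difference in the scaling factors, which are not stated, cannot be told apart from a lower level of every gene. The 10 oocyte markers examined all reached 1 FPKM, with summed levels of 12799 and 9849 FPKM in GV, 1820 to 1991 FPKM in MII with DMSO, and 5658 and 5160 FPKM in MII with BYBX. Of 12 granulosa and cumulus cell markers, 4 reached 1 FPKM in some library, Ptx3 was at 0 throughout, and the list summed to 14.8 and 7.28 FPKM in GV, 2.18 to 2.46 FPKM in MII with DMSO, and 3.52 and 3.18 FPKM in MII with BYBX. Of its 2 tested members, Cyp19a1 and Inha, both were lower in control MII than in GV by limma (88.3% of all tested entries were). Of these 2 markers, 0 were called higher with BYBX than with DMSO (65.2% of all tested entries were), with log2 differences of 0.073 and 0.0035 (limma adjusted p = 0.79 and 0.99). The part of these cells in the Slc25 values was not tested. Erythroid markers summed to at most 1.20 FPKM in any library.

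Since BYBX acts on rG4s, the spliced transcripts of the members were searched for the pattern of 4 runs of at least 3 G separated by 1 to 7 bases on the sense strand (longest coding transcript of each gene, GENCODE vM21 on GRCm38). The pattern was found in 6 of the 47 members and in 2 of the 28 tested members (7.14%), Slc25a38 and Slc25a22, against 1636 of 8747 tested genes with an annotated transcript (18.7%). Transcripts differ in length, and the share is a description of the letters and not of folding. The sites of these 2 tested members are shown because BYBX is a ligand of such sequences, with the runs of G in capitals. The Slc25a38 site (chr9:120110424-120110443, plus strand) occupies bases 51 to 70 of a 5′ UTR of 70 bases and thus ends at the start codon, and the Slc25a22 site (chr7:141430978-141431002, minus strand) lies in the 3′ UTR.

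Slc25a38: GGGcGGGcaggcGGGGaGGG

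Slc25a22: GGGaaggcaaGGGGaGGGtgcaGGG

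Slc25a38, which encodes a glycine carrier needed for heme synthesis, was among the members that fell least in control MII oocytes, whereas Slc25a22, which encodes a glutamate carrier, fell to 20.2% of its GV mean. The other members with the pattern, Slc25a23, Slc25a34, Slc25a42 and Slc25a45, were not tested because of their low levels. With 1 to 12 bases allowed between the runs the pattern was found in 16 members, and with runs of at least 2 G in all 47, so the number depends on the definition. Among the 28 tested members the first of these gave 8 (28.6%, against 33.3% of tested genes). The other gave all 28, against 97.2% of tested genes.

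Summed over the 47 members, the family stood at 828 and 691 FPKM in the GV libraries, at 156, 160 and 186 FPKM in the control MII libraries with DMSO, and at 388 and 342 FPKM in the BYBX libraries. The BYBX libraries thus lay between the other groups, with no overlap. The group means were 759 ± 96.4 (SD, n = 2), 168 ± 16.5 (SD, n = 3) and 365 ± 32.5 (SD, n = 2) FPKM. As a share of the listed FPKM of each library, which does not depend on the scaling factor, the family made up 0.169% and 0.172% in GV, 0.142%, 0.130% and 0.147% in MII with DMSO, and 0.157% and 0.170% in MII with BYBX. The share was lower in each control MII library than in any GV or BYBX library, and the difference was small beside that of the sums.

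Of the 28 tested members, 21 had a mean of at least 1 FPKM in all 3 groups. Another 6 reached it in GV and BYBX-treated MII oocytes but not in control MII oocytes, and Slc25a36, which encodes a pyrimidine nucleotide carrier, reached it in GV alone. These 7 passed the filter without the control MII group, so the direction of their changes is partly set by the filter. Levels per transcript length ranged from 132 FPKM for Slc25a31 to 1.54 FPKM for Slc25a33 in the GV means. The 6 most abundant members in GV (Slc25a31, Slc25a26, Slc25a15, Slc25a5, Slc25a17 and Slc25a4) made up 55.1% to 57.2% of the family sum in GV, 42.0% to 49.2% in MII with DMSO and 49.9% to 53.6% in MII with BYBX.

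**Figure D1:**
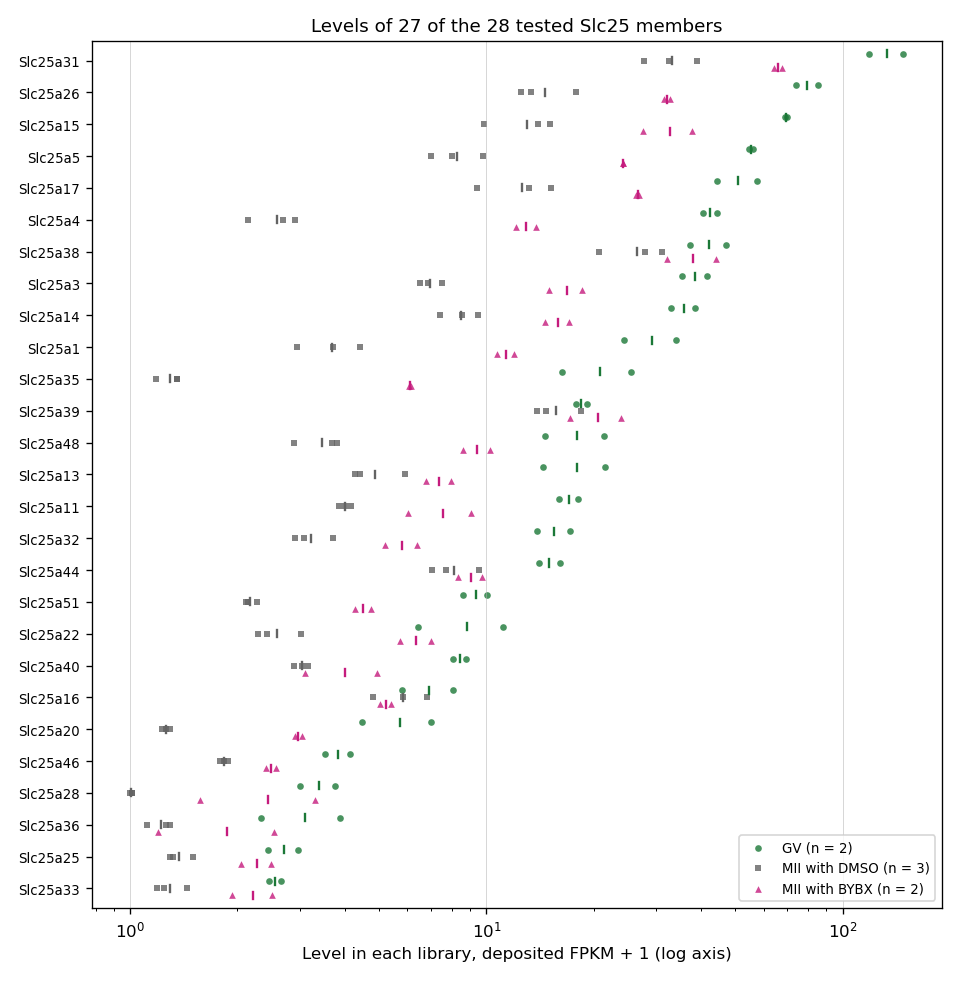
Level of the 28 tested Slc25 members, except 1 not reported here, in each library, as deposited FPKM + 1 on a log axis, ordered by the GV mean; points are libraries (GV n = 2, MII with DMSO n = 3, MII with BYBX n = 2) and short vertical lines are group means. Most members run from grey squares on the left to green circles on the right with the BYBX triangles between, and Slc25a38, Slc25a39 and Slc25a16 are exceptions in which the groups lie close together.

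In control MII oocytes compared with GV oocytes, 26 of the 28 tested members were lower and 0 were higher (limma on log2(FPKM + 1), Benjamini-Hochberg adjusted over the 9202 entries, threshold 0.05). Over all tested entries 88.3% were called lower and 0.272% higher, so the share of members is near the background. At an unadjusted limma p under 0.05 the counts were again 26 lower and 0 higher, and no other tool was run. The 2 members not called were Slc25a39, a carrier needed for mitochondrial glutathione, and Slc25a16, a carrier linked to coenzyme A. The same 26 members had no overlap between the libraries, against 92.5% of all tested entries. The median difference of the members was -2.06 on the log2(FPKM + 1) scale and that of all tested entries -1.83. The means in control MII oocytes ran from 0.323% (Slc25a28) to 84.1% (Slc25a39) of the GV mean with a median of 18.1%, and 22 members were below 25%.

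In BYBX-treated compared with control MII oocytes, 21 of the 28 tested members were higher and 0 were lower by the same limma test, against 65.2% higher and 0.0326% lower over all tested entries. At an unadjusted limma p under 0.05 there were 22 higher and 0 lower. Libraries did not overlap for 23 members, all with BYBX higher, against 79.0% of all tested entries. The median log2 difference was 1.03 for the members and 0.84 for all tested entries. The 7 members not called were Slc25a13, Slc25a16, Slc25a36, Slc25a38, Slc25a39, Slc25a40 and Slc25a44, whose differences ranged from -0.14 for Slc25a16 to 0.61 for Slc25a13 (limma adjusted p = 0.055). Slc25a13, the aspartate/glutamate carrier known as citrin, passed the threshold without GV replicate 1 (limma adjusted p = 0.043), GV replicate 2 (limma adjusted p = 0.044) or MII with DMSO replicate 1 (limma adjusted p = 0.031).

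In BYBX-treated MII compared with GV oocytes, 21 of the 28 tested members were lower and 0 were higher by limma, against 69.2% lower and 0.315% higher over all tested entries. The unadjusted limma counts were also 21 lower and 0 higher. Without GV replicate 1 the number lower was 17 (51.6% of all tested entries), and without MII with BYBX replicate 2 it was 16 (58.9% of all tested entries). Libraries did not overlap for 21 members, all with BYBX lower, against 82.3% of all tested entries lower without overlap and 0.848% higher. The median log2 difference was -1.03 for the members and -0.99 for all tested entries. In BYBX-treated oocytes the members stood at 25.6% (Slc25a35) to 112% (Slc25a39) of the GV mean with a median of 44.1%, 10 members were above 50% and 0 below 25%.

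**Figure D2:**
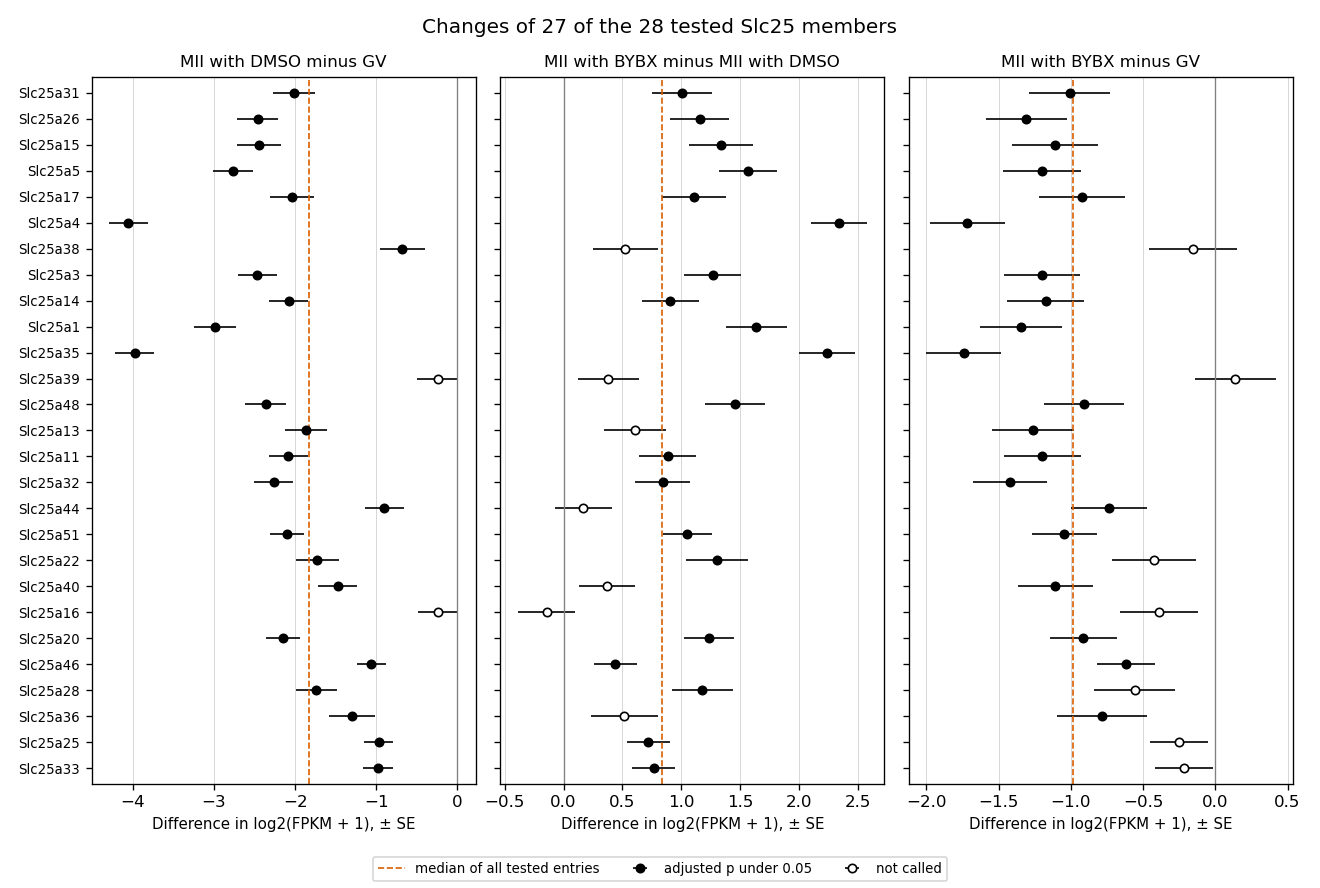
Difference in log2(FPKM + 1), ± SE from limma, for the 28 tested Slc25 members, except 1 not reported here, in the 3 comparisons; filled points have an adjusted p under 0.05, open points do not, and the dashed line is the median of the 9202 tested entries (-1.83, 0.84 and -0.99). Of the members shown, Slc25a4 and Slc25a35 lie farthest from 0 in control MII against GV, and Slc25a38, Slc25a39 and Slc25a16 lie near 0.

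The adenine nucleotide carriers exchange ADP for ATP across the inner membrane. All 3 listed members were lower in both MII groups than in GV, and BYBX-treated MII oocytes had more than control ones. Of all tested entries, 88.3% were lower in control MII than in GV, and 69.2% in BYBX-treated MII than in GV. With BYBX 65.2% of all were higher than with DMSO. Slc25a31 (chr3:40708855-40726096, GRCm38), the isoform of germ cells, stood at 147 and 118 FPKM in GV, at 31.5, 26.8 and 38.0 FPKM in MII with DMSO, and at 63.2 and 66.7 FPKM in MII with BYBX. The groups did not overlap, and the log2 differences were -2.02 in control MII against GV (limma adjusted p = 4.5e-06) and 1.008 with BYBX against DMSO (limma adjusted p = 0.0036). It had the highest mean of the family in every group, with 132 ± 20.8 (SD, n = 2), 32.1 ± 5.63 (SD, n = 3) and 65.0 ± 2.53 (SD, n = 2) FPKM, although in 1 control MII library Slc25a38 was above it.

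Slc25a4 (chr8:46206797-46211284), the isoform best known from heart and skeletal muscle, had the largest fall of the tested members in control MII oocytes on the log2(FPKM + 1) scale. As a share of the GV mean Slc25a35 (1.49%) and Slc25a28 (0.323%) were lower, and with a pseudocount of 0.1 Slc25a35 fell further. The levels of Slc25a4 were 43.5 and 39.6 FPKM in GV, 1.15, 1.68 and 1.90 FPKM in MII with DMSO, and 12.8 and 11.1 FPKM in MII with BYBX. The groups were far apart, and control MII oocytes held 3.798% of the GV mean and BYBX-treated ones 28.8%. The log2 difference of control MII against GV was -4.05 ± 0.24 (SE, limma adjusted p = 2.2e-09), against a median of -1.83 for all tested entries. With BYBX against DMSO it was 2.34 ± 0.24 (SE, limma adjusted p = 1.9e-06), and with BYBX against GV -1.72 ± 0.26 (SE, limma adjusted p = 0.00012).

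Slc25a5 (chrX:36795651-36798807), the isoform of proliferating and many other cells, stood at 55.2 and 53.8 FPKM in GV, at 6.99, 5.97 and 8.78 FPKM in MII with DMSO, and at 23.2 and 23.1 FPKM in MII with BYBX. The groups did not overlap, and the log2 differences were -2.76 in control MII against GV (limma adjusted p = 1.2e-07) and 1.56 with BYBX against DMSO (limma adjusted p = 9e-05). A pseudogene of Slc25a5 is annotated. The authors used uniquely mapped reads, so reads shared with it could have been left out, and the level of Slc25a5 is uncertain. Pseudogenes under names that do not start with Slc25a were not searched for, so other members could be affected too.

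Ratios within a library are free of the scaling factor and show that the make-up of the ADP/ATP carriers differed between the groups. Slc25a4 per Slc25a5 was 0.787 and 0.735 in GV, 0.164, 0.282 and 0.216 in MII with DMSO, and 0.552 and 0.480 in MII with BYBX. Slc25a31 per Slc25a4 was 3.39 and 2.98 in GV, 27.5, 15.9 and 19.996 in MII with DMSO, and 4.93 and 6.01 in MII with BYBX. For both ratios the BYBX libraries lay between GV and control MII, with means nearer to GV. The germ-cell isoform per Slc25a5 was 2.67 and 2.19 in GV, 4.51, 4.48 and 4.33 in control MII, and 2.72 and 2.89 in BYBX-treated oocytes. No test was run on the ratios, and those with Slc25a5 share the uncertainty of its level.

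**Figure D3:**
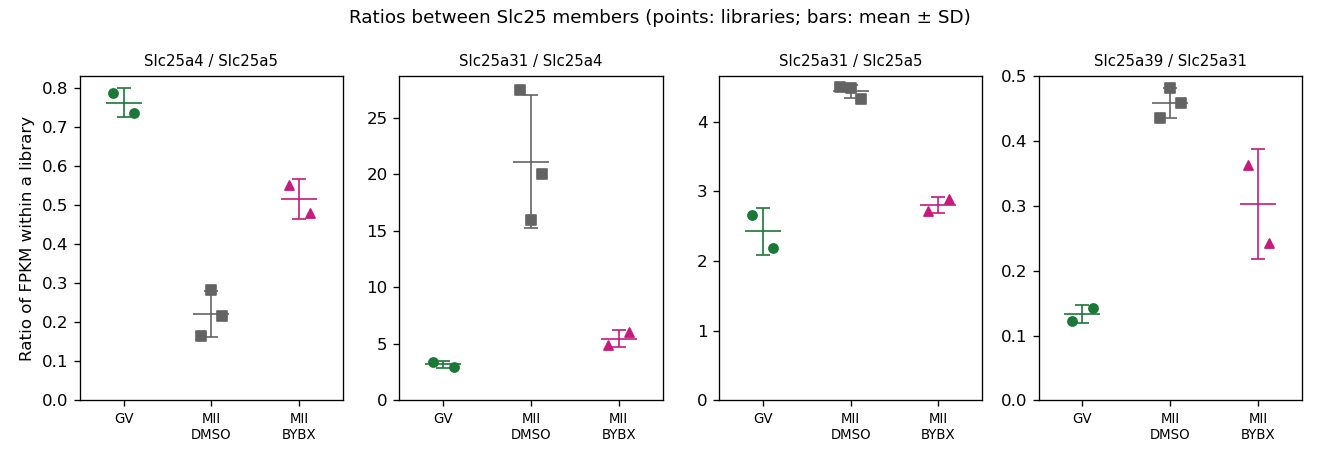
Ratios of FPKM between pairs of Slc25 members within each library (points; bars are group mean ± SD; GV n = 2, MII with DMSO n = 3, MII with BYBX n = 2; linear axes from 0). Slc25a4 per Slc25a5 was 0.761 in GV, 0.221 in MII with DMSO and 0.516 in MII with BYBX on average, and Slc25a31 per Slc25a4, Slc25a31 per Slc25a5 and Slc25a39 per Slc25a31 were all highest with DMSO.

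The phosphate, carboxylate, carnitine and ATP-Mg/phosphate carriers follow. Slc25a3, which imports the phosphate used by ATP synthase, stood at 40.6 and 34.5 FPKM in GV, at 5.49, 6.52 and 5.84 FPKM in MII with DMSO, and at 17.6 and 14.01 FPKM in MII with BYBX. The log2 differences were -2.47 in control MII against GV (limma adjusted p = 2.9e-07) and 1.27 with BYBX against DMSO (limma adjusted p = 0.00043). Slc25a1, the citrate carrier that exports citrate for lipid synthesis, fell further, from 33.0 and 23.4 FPKM in GV to 2.71, 1.94 and 3.42 FPKM in MII with DMSO, with 9.71 and 10.96 FPKM in MII with BYBX. Its groups did not overlap, and the log2 differences were -2.98 (limma adjusted p = 9.7e-08) and 1.64 (limma adjusted p = 9.9e-05). Slc25a11, which exchanges 2-oxoglutarate for malate, had means of 16.01, 3.01 and 6.55 FPKM in GV, control MII and BYBX-treated MII, and Slc25a20, which brings acylcarnitines into the matrix for fatty acid oxidation, had means of 4.73, 0.259 and 1.96 FPKM. Both passed the limma test in all 3 comparisons, but the rise of Slc25a11 with BYBX over DMSO (0.88, limma adjusted p = 0.006) was lost without MII with BYBX replicate 1 (0.59, limma adjusted p = 0.11). Slc25a25, which exchanges ATP-Mg for phosphate, was called lower in control MII than in GV and higher with BYBX than with DMSO, at means of 1.70, 0.372 and 1.26 FPKM, and it was not called between BYBX and GV (-0.25, limma adjusted p = 0.27), where the libraries overlapped.

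Of the carriers of pyrimidine nucleotides, NAD and cofactors, 8 of 9 were tested, 7 were lower in control MII than in GV and 6 were higher with BYBX than with DMSO, near the 88.3% and 65.2% of all tested entries. Slc25a26, which imports S-adenosylmethionine, the methyl donor, was the member with the next highest GV mean after Slc25a31. It stood at 84.3 and 72.9 FPKM in GV, at 12.4, 11.5 and 16.8 FPKM in MII with DMSO, and at 31.7 and 30.4 FPKM in MII with BYBX. The log2 differences were -2.46 in control MII against GV (limma adjusted p = 5.5e-07) and 1.15 with BYBX against DMSO (limma adjusted p = 0.0013). Slc25a17, which acts in peroxisomes rather than mitochondria, had 56.6 and 43.3 FPKM in GV, 14.2, 8.39 and 12.2 FPKM in MII with DMSO, and 25.9 and 25.3 FPKM in MII with BYBX. Its groups did not overlap, with log2 differences of -2.03 (limma adjusted p = 7.5e-06) and 1.11 (limma adjusted p = 0.0028). Its call of BYBX against GV (-0.92, limma adjusted p = 0.014) was lost without GV replicate 1 (limma adjusted p = 0.11) or MII with BYBX replicate 2 (limma adjusted p = 0.053).

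Slc25a32, a carrier of folate and FAD, had 16.2 and 12.8 FPKM in GV, 2.07, 2.71 and 1.90 FPKM in MII with DMSO, and 4.19 and 5.37 FPKM in MII with BYBX. It was 1 of the 3 members with the largest difference of BYBX-treated MII from GV on the log2(FPKM + 1) scale (-1.42, limma adjusted p = 0.00036), and its rise with BYBX over DMSO (0.84, limma adjusted p = 0.0065) was lost without MII with BYBX replicate 2 (0.69, limma adjusted p = 0.058). Slc25a33, which carries pyrimidine nucleotides, had 1.44 and 1.64 FPKM in GV, 0.244, 0.189 and 0.444 FPKM in MII with DMSO, and 0.925 and 1.49 FPKM in MII with BYBX. Its GV and BYBX libraries overlapped, and the log2 difference between them was -0.21 (limma adjusted p = 0.35). The related Slc25a36 was too uneven to be read with BYBX, at 0.198 and 1.54 FPKM in the BYBX libraries. Its log2 difference of BYBX against DMSO was 0.51 (limma adjusted p = 0.12), 1.06 without MII with BYBX replicate 1 (limma adjusted p = 0.0018) and -0.03 without MII with BYBX replicate 2 (limma adjusted p = 0.92). Its call of BYBX against GV (-0.79, limma adjusted p = 0.037) was lost without GV replicate 1 (-0.42, limma adjusted p = 0.39) or MII with BYBX replicate 1 (-0.24, limma adjusted p = 0.4). Slc25a51, the NAD carrier, was called in all 3 comparisons with means of 8.32, 1.17 and 3.51 FPKM.

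Slc25a16 was the exception among the cofactor carriers. It stood at 4.79 and 7.04 FPKM in GV, at 3.79, 5.81 and 4.84 FPKM in MII with DMSO, and at 4.03 and 4.39 FPKM in MII with BYBX. GV and control MII overlapped and so did control and BYBX-treated MII, while both BYBX libraries were below both GV libraries. The log2 differences were -0.25 ± 0.25 in control MII against GV (SE, limma adjusted p = 0.35), -0.14 with BYBX against DMSO (limma adjusted p = 0.61) and -0.39 with BYBX against GV (limma adjusted p = 0.21). Among the 9202 tested entries the first of these lay at percentile 95.5 and the second at percentile 1.25, counted from the most negative difference.

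Of the amino acid carriers, 5 of 9 were tested, and all 5 were lower in control MII than in GV and 2 were higher with BYBX than with DMSO, where 88.3% and 65.2% of all tested entries were. Slc25a15, the ornithine carrier of the urea cycle, had 69.0 and 68.1 FPKM in GV, 8.84, 12.9 and 14.1 FPKM in MII with DMSO, and 36.9 and 26.4 FPKM in MII with BYBX. Its groups did not overlap, with log2 differences of -2.45 in control MII against GV (limma adjusted p = 1.2e-06) and 1.34 with BYBX against DMSO (limma adjusted p = 0.00075). The call of BYBX against GV (-1.11, limma adjusted p = 0.005) was lost without MII with BYBX replicate 2 (limma adjusted p = 0.054). Slc25a22, which carries the 3′ UTR motif shown above, had means of 7.79 ± 3.33 (SD, n = 2), 1.58 ± 0.393 (SD, n = 3) and 5.34 ± 0.902 (SD, n = 2) FPKM, and it was higher with BYBX than with DMSO by 1.30 on the log2 scale (limma adjusted p = 0.00074). It was not called between BYBX and GV (-0.43, limma adjusted p = 0.2), except without GV replicate 2 (-0.82, limma adjusted p = 0.031).

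Slc25a38 (chr9:120110374-120124504), which carries the 5′ UTR motif shown above, was among the members closest to their GV level in both MII groups. It stood at 46.1 and 36.2 FPKM in GV, at 19.6, 30.04 and 26.9 FPKM in MII with DMSO, and at 43.1 and 31.1 FPKM in MII with BYBX. All 3 control MII libraries were below the others, and the GV and BYBX libraries overlapped. Control MII oocytes held 62.1% of the GV mean, a log2 difference of -0.68 ± 0.28 (SE, limma adjusted p = 0.033). This call did not hold without GV replicate 1 (limma adjusted p = 0.19) or MII with DMSO replicate 1 (limma adjusted p = 0.12), or with no filter on level (limma adjusted p = 0.052). With BYBX against DMSO the difference was 0.52 (limma adjusted p = 0.11), and with BYBX against GV -0.15 (limma adjusted p = 0.66). The member made up 5.403% of the family sum in GV, 15.3% in control MII and 10.1% in BYBX-treated oocytes.

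Slc25a44, which carries branched-chain amino acids, had 15.04 and 13.01 FPKM in GV, 6.03, 6.69 and 8.54 FPKM in MII with DMSO, and 8.73 and 7.35 FPKM in MII with BYBX. It was lower in both MII groups than in GV with no overlap, and the MII groups overlapped with each other. The log2 differences were -0.90 in control MII against GV (limma adjusted p = 0.0031) and 0.17 with BYBX against DMSO (limma adjusted p = 0.54), the latter at percentile 8.55 of all tested entries. Its call of BYBX against GV (-0.73, limma adjusted p = 0.024) was lost without GV replicate 1 (limma adjusted p = 0.1) or MII with BYBX replicate 2 (limma adjusted p = 0.13). Slc25a13 had means of 17.0, 3.87 and 6.36 FPKM, and its close relative Slc25a12, the aspartate/glutamate carrier of muscle and brain, was below 0.7 FPKM in every library and not tested.

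Among the iron and glutathione carriers, the paralogs Slc25a39 and Slc25a40, both linked to glutathione import, were called differently in control MII against GV. Slc25a39 stood at 18.1 and 16.8 FPKM in GV, at 13.7, 12.9 and 17.4 FPKM in MII with DMSO, and at 22.9 and 16.2 FPKM in MII with BYBX. The libraries of all 3 groups overlapped. Its log2 differences were -0.25 ± 0.26 (SE, limma adjusted p = 0.37) in control MII against GV, 0.38 (limma adjusted p = 0.2) with BYBX against DMSO and 0.14 (limma adjusted p = 0.68) with BYBX against GV. Per Slc25a31 it was 0.123 and 0.143 in GV, 0.435, 0.482 and 0.459 in control MII, and 0.363 and 0.243 in BYBX-treated oocytes.

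Slc25a40 had 7.79 and 7.06 FPKM in GV, 2.16, 1.88 and 2.04 FPKM in MII with DMSO, and 2.10 and 3.92 FPKM in MII with BYBX. It was lower in control MII than in GV (-1.48, limma adjusted p = 4.6e-05), and 1 BYBX library lay within the control MII range while the other lay above it. The difference of BYBX from DMSO was 0.37 (limma adjusted p = 0.18), or 0.70 without MII with BYBX replicate 1 (limma adjusted p = 0.04). The difference between the changes of the paralogs was not tested. Slc25a28, the mitochondrial iron importer mitoferrin-2, was listed at 0 in 1 control MII library and at most 0.0120 FPKM in the others, against 1.996 and 2.77 FPKM in GV. With BYBX it was at 2.31 and 0.574 FPKM, so its rise over DMSO (log2 1.18, limma adjusted p = 0.0012) differed widely between the BYBX libraries. It was not called between BYBX and GV (-0.56, limma adjusted p = 0.09), except without MII with BYBX replicate 1 (-1.09, limma adjusted p = 0.00036). The related Slc25a37, mitoferrin-1 of erythroid cells, was not tested, with at most 0.102 FPKM in any library.

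The remaining tested members were an uncoupling-protein-like carrier, an outer membrane protein and members to which no substrate was assigned. Slc25a14 had 37.5 and 32.0 FPKM in GV, 7.54, 8.45 and 6.42 FPKM in MII with DMSO, and 16.1 and 13.6 FPKM in MII with BYBX. The groups did not overlap, with log2 differences of -2.08 in control MII against GV (limma adjusted p = 1.9e-06) and 0.91 with BYBX against DMSO (limma adjusted p = 0.0049). Slc25a46, an outer membrane member linked to mitochondrial shape, had means of 2.84, 0.834 and 1.49 FPKM. Its rise with BYBX over DMSO (0.44, limma adjusted p = 0.048) was lost on leaving out any single MII library (limma adjusted p = 0.12, 0.14 and 0.11 without MII with DMSO replicates 1, 2 and 3, and 0.14 and 0.068 without MII with BYBX replicates 1 and 2). Slc25a48 was called in all 3 comparisons with means of 17.0, 2.45 and 8.42 FPKM, although the call of BYBX against GV was lost without GV replicate 1 (limma adjusted p = 0.098) or MII with BYBX replicate 2 (limma adjusted p = 0.063).

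Slc25a35 (chr11:68968131-68974365, plus strand), a carrier without an assigned substrate, stood at 1.49% of its GV mean in control MII oocytes and at 25.6% in BYBX-treated ones. It was at 24.4 and 15.3 FPKM in GV, at 0.351, 0.185 and 0.351 FPKM in MII with DMSO, and at 5.14 and 5.05 FPKM in MII with BYBX. The groups were far apart, with log2 differences of -3.98 in control MII against GV (limma adjusted p = 2.4e-09), 2.24 with BYBX against DMSO (limma adjusted p = 2.6e-06) and -1.74 with BYBX against GV (limma adjusted p = 0.00011). Of the 3648 bases of its longest coding transcript, 1151 (31.6%) overlap exons of Rangrf on the opposite strand, and the library kit does not keep the strand. Rangrf stood at 12.03 and 11.4 FPKM in GV, at 0.0299, 0.681 and 0.552 FPKM in MII with DMSO, and at 5.36 and 3.77 FPKM in MII with BYBX. Reads of the shared bases cannot be assigned to either gene, and the changes of Slc25a35 and Rangrf cannot be told apart. Of the 28 tested members, 5 have exons of another gene on the opposite strand, over at most 14.9% of the transcript in the others.

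The 19 members that were not tested were mostly close to 0. Slc25a43 was listed at 0 in all 7 libraries, and the highest library of 11 members was under 0.2 FPKM. The highest value of an untested member was 2.65 FPKM, of Slc25a30 (uncoupling-protein-like) in GV replicate 1, with 1.44 FPKM in GV replicate 2, at most 0.0976 FPKM in MII with DMSO, and 0.184 and 0.834 FPKM in MII with BYBX. Slc25a10, the dicarboxylate carrier, had 0.963 and 0.756 FPKM in GV, 0.136, 0.133 and 0.0937 FPKM in MII with DMSO, and 0.657 and 0.688 FPKM in MII with BYBX. Several untested members are neighbours of others in the genome, among them Slc25a29 and Slc25a47, which lie 162 bases apart on chromosome 12, and Slc25a43, which lies 18.4 kb from Slc25a5 on the X chromosome although Slc25a5 is among the most abundant members.

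Grouped by substrate, the shares of 10 of 11 classes in the family sum did not overlap between the GV and the control MII libraries (4 were higher in control MII and 6 lower), and the uncoupling-protein-like class overlapped. Between control and BYBX-treated MII 7 of 11 classes did not overlap, and between GV and BYBX-treated MII 10 of 11. No background count for other sets of genes was made. The iron and glutathione carriers made up 3.39% and 3.86% of the family sum in GV, 9.23% to 10.5% in MII with DMSO, and 7.04% and 6.07% in MII with BYBX. Amino acid carriers made up 19.6% and 19.9% in GV, 26.4% to 34.5% in MII with DMSO, and 26.4% and 22.4% in MII with BYBX. The ADP/ATP carriers made up 29.7% and 30.5% in GV, 21.5% to 26.1% in MII with DMSO, and 25.6% and 29.5% in MII with BYBX. The first of these shifts came mainly from Slc25a39 (2.31% of the family in GV, 8.73% in control MII and 5.33% with BYBX), and the amino acid shift mainly from Slc25a38. The carnitine carrier made up 0.613%, 0.156% and 0.539%, and members without an assigned substrate 4.84%, 1.73% and 3.81%, of the GV, control MII and BYBX means. These shares are a description without a test, and a rise of one share lowers the others.

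**Figure D4:**
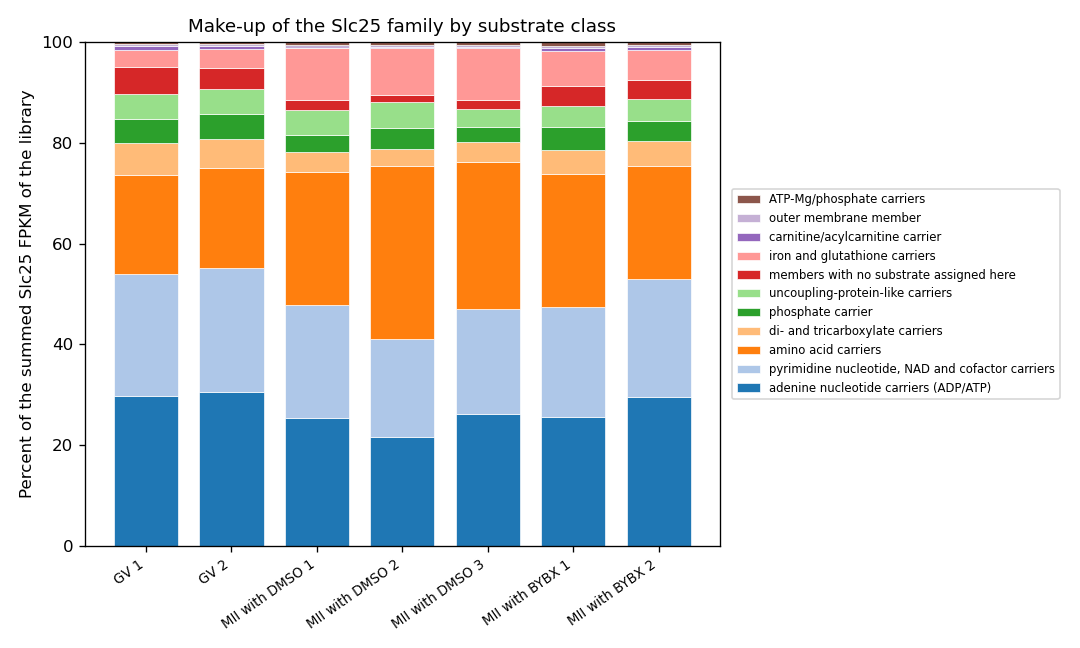
Share of each substrate class in the summed Slc25 FPKM of each library, in percent; each bar is a library and adds up to the whole family. The iron and glutathione class widens from 3.39% and 3.86% in GV to between 9.23% and 10.5% in MII with DMSO, and is 7.04% and 6.07% with BYBX.

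Since the levels rest on the authors' scale, the same fit was run after every library was rescaled to the same total FPKM and, separately, after it was centred on its median log2 level. In control MII against GV, 13 members were then lower and 4 higher by limma at the same total (over all tested entries 49.5% and 23.3%), and 4 were lower and 10 higher after centring (26.7% and 48.8%). The median of all tested entries was -0.56 at the same total and 0.47 after centring. Slc25a4, Slc25a35 and Slc25a1 were among the members lower on all 3 scales, whereas Slc25a39, Slc25a16, Slc25a38 and Slc25a44 were higher on both other scales. After centring, Slc25a4 was at -1.75 (limma adjusted p = 2.4e-05) and Slc25a39 at 2.06 (limma adjusted p = 1.7e-05). Slc25a31, at 24.2% of its GV mean in control MII, was not called on either of the other scales, at -0.16 and 0.29. Slc25a25 and Slc25a33, at 21.9% and 18.9% of their GV means, were called higher after centring, at 1.33 and 1.32. At the same total they were not called, at -0.14 and -0.23. Centring shifts log2(FPKM + 1), on which low levels are compressed, so its calls of low members are uncertain in all 3 comparisons.

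In BYBX-treated against control MII oocytes, 10 members were higher and 2 lower by limma at the same total (39.9% and 8.22% of all tested entries), and 3 were higher and 9 lower after centring (18.4% and 43.9%). The median of all tested entries was 0.34 and -0.44. Slc25a4 and Slc25a35 were among the members higher with BYBX on all 3 scales, with differences of 1.06 and 0.96 after centring (limma adjusted p = 0.0013 and 0.002). Slc25a16 and Slc25a44 were lower with BYBX on both other scales, at -1.42 and -1.11 after centring (limma adjusted p = 0.0016 and 0.0011).

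In BYBX-treated MII against GV oocytes, 2 members were lower and 2 higher by limma at the same total (13.3% and 5.30% of all tested entries), and 2 were lower and 4 higher after centring (13.6% and 15.2%). Slc25a4 and Slc25a35 were lower on all 3 scales, at -0.69 and -0.72 after centring (limma adjusted p = 0.031 and 0.028). Slc25a38 and Slc25a39 were higher on both other scales, at 0.87 and 1.16 after centring (limma adjusted p = 0.025 and 0.013).

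**Figure D5:**
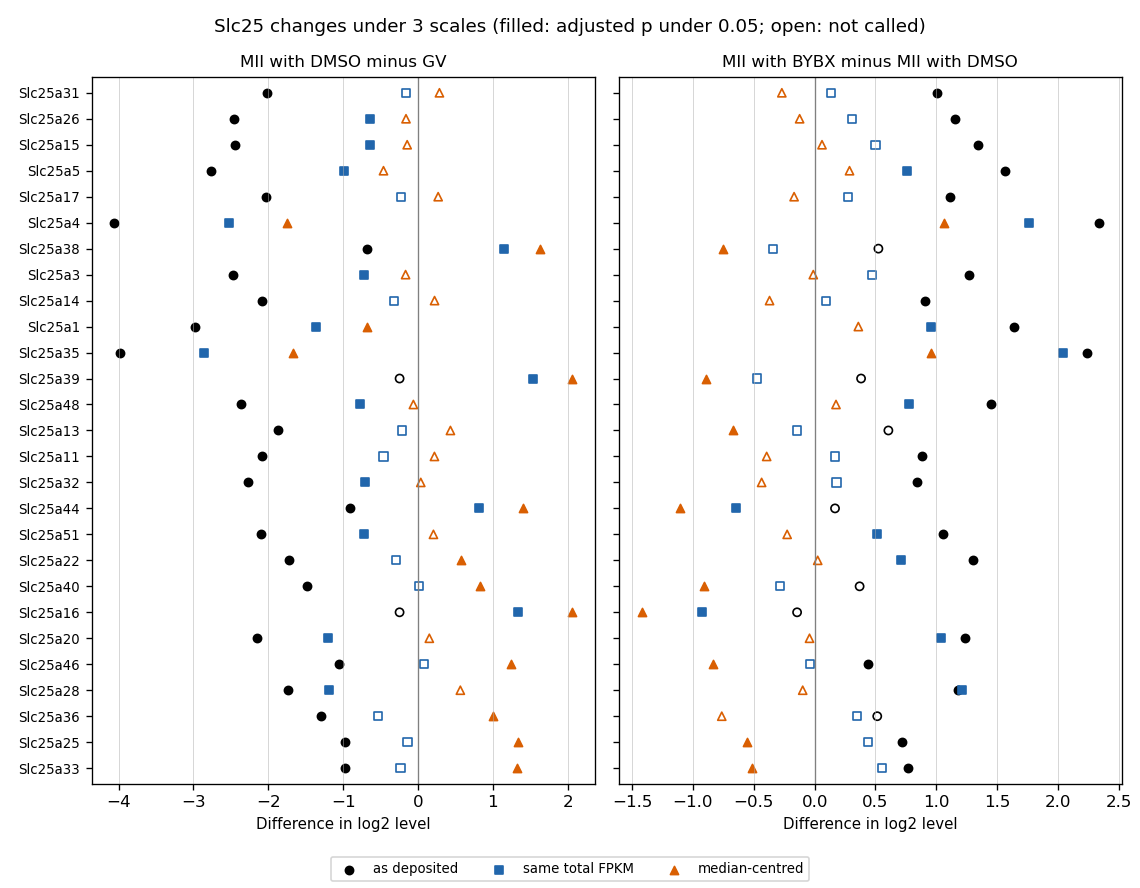
Difference in log2 level of the 28 tested Slc25 members, except 1 not reported here, in control MII against GV (left) and BYBX-treated against control MII (right) on the deposited scale, after rescaling to an equal total, and after centring on the median; filled symbols have a limma adjusted p under 0.05. Slc25a4 and Slc25a35 are filled and on the same side of 0 on all 3 scales in both panels, and Slc25a39 and Slc25a16 are on the right of 0 in the left panel on both other scales.

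Genes that act together with the family are given on the deposited scale. Of the family members under other symbols, Ucp1 and Ucp3, the uncoupling proteins of brown fat and muscle, were listed at 0 throughout, Ucp2 and Mtch2 were not tested, and Mtch1, an outer membrane member, was lower in control MII than in GV (-1.75, limma adjusted p = 4.4e-05) and higher with BYBX than with DMSO (1.20, limma adjusted p = 0.0021). Of 14 entries for the TIM22 import route, through which the carriers reach the inner membrane, 12 were tested, and 12 fell in control MII against GV (88.3% of all tested entries did), 11 rose in BYBX-treated over control MII (65.2% of all), and 10 were lower in BYBX-treated MII than in GV (69.2% of all). Their median log2 differences were -3.43, 1.70 and -1.46. The 14 entries cover 13 symbols, because Timm8a1 has more than 1 entry, and each of its entries was tested and counted. Timm9, a chaperone that guides carriers between the membranes, stood at 602 and 644 FPKM in GV, at 6.23, 9.62 and 17.2 FPKM in MII with DMSO, and at 230 and 136 FPKM in MII with BYBX. It was the extreme of the list. The log2 differences of control MII against GV ranged from -5.80 for Timm9 to -0.55 for Agk. Those of BYBX against DMSO ranged from 0.34 for Agk to 3.99 for Timm9.

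Of 20 other genes of mitochondrial membrane transport, 15 were tested, and 15 fell in control MII against GV (88.3% of all tested entries did), 12 rose in BYBX-treated over control MII (65.2% of all), and 13 were lower in BYBX-treated MII than in GV (69.2% of all). The median log2 differences were -2.72, 1.59 and -1.10. Vdac3, an outer membrane pore through which the substrates of the carriers pass, stood at 262 and 242 FPKM in GV, at 2.30, 2.82 and 2.74 FPKM in MII with DMSO, and at 66.4 and 51.8 FPKM in MII with BYBX. It was the extreme of this list. The log2 differences of control MII against GV ranged from -6.13 for Vdac3 to -0.72 for Sfxn5. Those of BYBX against DMSO ranged from 0.18 for Mcu to 4.05 for Vdac3. Whether these lists differ from the Slc25 members was not tested.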

How the data were processed

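Per the labels and methods, the authors used Trim Galore 0.6.7 for trimming, HISAT2 2.2.1 for alignment to mm10 and Cufflinks 2.2.1 with UCSC gene models for FPKM values. The FPKM were then scaled by the authors to the ERCC spike-in, batches were set to one another through their GV samples, and 1 FPKM table per library was deposited. Neither the factors nor the batch of each library are given in the sources used here. Whole reads are not kept, so the depth is unknown and no counting interval can be given.

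Of the 25912 listed entries, 4 with a missing value were left out. Values were analysed as log2(FPKM + 1), a scale that understates the change of low genes, by two-sided limma tests (version 3.58.1, R 4.3.3, with lmFit, and eBayes set to use an intensity trend). Entered were 9202 entries at 1 FPKM or more in the mean of the 3 group means. The 7 libraries entered 1 model of 3 group means with 4 residual degrees of freedom, and p-values were Benjamini-Hochberg adjusted over all 9202 entries. The fit was tested on simulated data. Tables, motifs and plots were made with Python 3.11.15, numpy 2.4.6, pandas 2.3.3 and matplotlib 3.10.9.

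The members follow from the symbol. The substrate classes, the related lists and the markers were chosen with earlier results of these data known. Values in every library are given for members with a group mean of at least 20 FPKM in some group and for the 3 tested members with the largest difference each way in each comparison. Slc25a28, Slc25a36, Slc25a30, Slc25a10, Timm9, Vdac3 and Rangrf were added after their values were seen. A tested member that this rule names is counted but not reported here. Gene positions, transcripts and overlaps are from GENCODE vM21 on GRCm38 (mm10), in which all 47 members were found by symbol. A protein table was not used here, so no protein sequence is shown.

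As alternatives, the pseudocount was set to 0.1, the filter to 5 FPKM or none, the libraries to an equal total or to their median, and the motif to other definitions. Fits were also run on only the groups compared, without the trend, with a minimum of 2-fold, with a block for the replicate number, and without each library in turn.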

Additional observations from a re-analysis of the deposited data

How the results depend on the processing

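The scale changed more directions and counts than any other choice tried. In control MII against GV oocytes the number of members called lower was 26 on the deposited scale, 13 at an equal total and 4 after centring on the library median, with 0, 4 and 10 higher. Over all tested entries 88.3%, 49.5% and 26.7% were lower, and 0.272%, 23.3% and 48.8% higher. The median of the tested members turned to 0.25 after centring, and that of all tested entries to 0.47. In BYBX-treated against control MII oocytes 21 members were higher on the deposited scale, 10 at the same total and 3 after centring, with 0, 2 and 9 lower. Over all tested entries 65.2%, 39.9% and 18.4% were higher, and 0.0326%, 8.22% and 43.9% lower. The median of the members turned to -0.25 after centring, and that of all tested entries to -0.44. In BYBX-treated MII against GV oocytes 21 members were lower on the deposited scale and 2 on each of the other scales, with 0, 2 and 4 higher. Over all tested entries 69.2%, 13.3% and 13.6% were lower, and 0.315%, 5.30% and 15.2% higher. Rescaling removes the differences in library total by its construction. The family sum became 414 FPKM in GV, 339 FPKM in MII with DMSO and 397 FPKM in MII with BYBX at the same total. Members whose direction turned are given as log2 differences. Turned means on the other side of 0, to which the median of all tested entries also went after centring in all 3 comparisons.

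In control MII against GV, 6 turned at the same total, Slc25a16 at 1.33, Slc25a38 at 1.15, Slc25a39 at 1.53, Slc25a40 at 0.012, Slc25a44 at 0.81 and Slc25a46 at 0.081, and 19 after centring, Slc25a11 at 0.22, Slc25a13 at 0.43, Slc25a14 at 0.22, Slc25a16 at 2.06, Slc25a17 at 0.27, Slc25a20 at 0.15, Slc25a22 at 0.57, Slc25a25 at 1.33, Slc25a28 at 0.57, Slc25a31 at 0.29, Slc25a32 at 0.038, Slc25a33 at 1.32, Slc25a36 at 1.004, Slc25a38 at 1.63, Slc25a39 at 2.06, Slc25a40 at 0.83, Slc25a44 at 1.402, Slc25a46 at 1.24 and Slc25a51 at 0.21. In BYBX-treated against control MII, 6 turned at the same total, Slc25a13 at -0.15, Slc25a38 at -0.34, Slc25a39 at -0.47, Slc25a40 at -0.28, Slc25a44 at -0.65 and Slc25a46 at -0.037, and 19 after centring, Slc25a3 at -0.011, Slc25a11 at -0.39, Slc25a13 at -0.67, Slc25a14 at -0.37, Slc25a17 at -0.17, Slc25a20 at -0.042, Slc25a25 at -0.56, Slc25a26 at -0.12, Slc25a28 at -0.098, Slc25a31 at -0.27, Slc25a32 at -0.44, Slc25a33 at -0.51, Slc25a36 at -0.76, Slc25a38 at -0.75, Slc25a39 at -0.90, Slc25a40 at -0.91, Slc25a44 at -1.11, Slc25a46 at -0.84 and Slc25a51 at -0.23. In BYBX-treated MII against GV, 10 turned at the same total, Slc25a16 at 0.41, Slc25a17 at 0.041, Slc25a22 at 0.41, Slc25a25 at 0.30, Slc25a28 at 0.030, Slc25a33 at 0.32, Slc25a38 at 0.81, Slc25a44 at 0.17, Slc25a46 at 0.044 and Slc25a48 at 0.0031, and 13 after centring, Slc25a16 at 0.64, Slc25a17 at 0.10, Slc25a20 at 0.11, Slc25a22 at 0.60, Slc25a25 at 0.77, Slc25a28 at 0.47, Slc25a31 at 0.017, Slc25a33 at 0.81, Slc25a36 at 0.24, Slc25a38 at 0.87, Slc25a44 at 0.29, Slc25a46 at 0.41 and Slc25a48 at 0.11.

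With a filter at 5 FPKM 17 members were lower in control MII than in GV, since only 18 were tested. Of all 5508 entries that passed this filter, 4842 were lower. Leaving out each MII with DMSO library in turn gave 25 to 26 members lower in control MII against GV (85.4% to 86.2% of all tested entries). It gave 20 to 21 higher with BYBX against DMSO (58.4% to 60.6% of all) and 21 lower with BYBX against GV (67.1% to 69.5% of all). Leaving out a GV or BYBX library left 1 in its group, which was assumed to vary like the other groups. Directions turned there for Slc25a36 with BYBX against DMSO (-0.027 to 1.06), and for Slc25a38 (-0.38 to 0.076) and Slc25a39 (-0.10 to 0.37) with BYBX against GV. Without Slc25a31, its highest member, the family summed to 627, 135 and 299.9 FPKM in GV, control MII and BYBX-treated MII, or 0.141%, 0.113% and 0.134% of the listed FPKM. The rG4 pattern was found in 16 members with 1 to 12 bases between the runs and in 47 with runs of at least 2 G, against 6. Of tested genes 33.3% and 97.2% then had it, against 18.7%. The pseudocount, the fits of 2 groups, the missing intensity trend, the filters and the minimum of 2-fold turned no direction of a member, but they ended some calls. A minimum of 2-fold left 22 members lower in control MII than in GV, 15 higher with BYBX over DMSO and 15 lower with BYBX against GV. The share of all tested entries at this minimum was not counted. Slc25a38 in control MII against GV was lost without a filter (limma adjusted p = 0.052). Slc25a46 with BYBX over DMSO was lost at a pseudocount of 0.1, without a filter and without the trend (limma adjusted p = 0.052, 0.071 and 0.073), and so was Slc25a36 with BYBX against GV (limma adjusted p = 0.058, 0.16 and 0.061). In the fit of 2 groups Slc25a44 and Slc25a46 were lost with BYBX against GV (limma adjusted p = 0.066 and 0.065), and Slc25a13 was gained with BYBX over DMSO there and without the trend (limma adjusted p = 0.045 and 0.049).

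The groups share replicate numbers in the labels, but no source says that a number marks a shared batch, litter or day. Deviations of same-numbered libraries from their group means correlated at 0.49 and 0.28 for GV with control MII and at -0.60 and -0.35 for control with BYBX-treated MII. For GV with BYBX-treated MII the value was -0.33. In a group of 2 libraries the deviations are opposite by construction, so these values cannot show whether a batch or day was shared. With the replicate number as a block 25 members were lower in control MII than in GV (7777 of the 9202 tested entries were). In that fit 20 members rose in BYBX-treated over control MII (5266 of all entries), and 20 were lower in BYBX-treated MII than in GV (5962 of all entries). The calls not kept were those of Slc25a38 in control MII against GV (limma adjusted p = 0.067), Slc25a46 with BYBX against DMSO (limma adjusted p = 0.15) and Slc25a44 with BYBX against GV (limma adjusted p = 0.051).

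The precision rests on 2 or 3 libraries per group, and the depth of the libraries is unknown. Levels under about 1 FPKM, which is where most untested members and several control MII values lie, are compressed by the pseudocount of 1.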
